A study of Macaca fascicularis with 4 samples.

Results

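Genes named as members of 10 RNA splicing regulator families were examined in full-length RNA libraries of 4 tissues of the cynomolgus monkey, Macaca fascicularis. The members were all gene symbols of the families SRSF, HNRNP, RBM, CELF, MBNL, RBFOX, ESRP, PTBP, NOVA and QKI that had counts in at least 1 library. This rule found 69 of the 13982 genes in the files, in 9 of the families, since QKI was not among the names analysed here. The 4 tissues were liver, muscle, and 2 that the labels call oWAT and sWAT; WAT usually stands for white adipose tissue, and the labels do not spell out the first letters. The RNA of 5 monkeys was combined into 1 library per tissue and read on the PacBio Sequel II platform, which sequences whole cDNA molecules. No treatment, genotype, age or sex is given in the labels. A pooled library gives no spread between animals, so every interval below covers counting error only, and no p-value was computed.

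Splicing regulators decide which exons of a pre-mRNA are joined. SR proteins (the SRSF family) generally bind exons and favour their inclusion, and many hnRNP proteins (the HNRNP family) bind the same transcripts and favour exclusion. Both are made in nearly all cells. The CELF and MBNL proteins bind intronic and exonic motifs and often act in opposite directions on the same exons, PTBP proteins repress exons beside pyrimidine tracts, and RBFOX, NOVA and ESRP proteins are known for exon programmes of muscle and neurons, of neurons, and of epithelia. The RBM family shares an RNA-binding motif and a naming scheme rather than 1 function. RBM20 and RBM24 regulate exons of sarcomere genes, RBM15 and RBM15B belong to the complex that methylates adenosine in mRNA, RBM8A is part of the exon junction complex, and RBM19 and RBM28 act in the nucleolus. In bulk tissue, fewer cells of a type and less RNA per cell cannot be told apart. The counts are per gene and do not show which isoforms a regulator produced.

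Markers matched the tissue labels. The 7 hepatocyte markers had 69556 summed counts in liver against 1 to 4 in the other libraries, the 7 myofibre markers 29475 in muscle against 47 to 55, and the 6 adipocyte markers 2780 in oWAT and 2471 in the sWAT library against 5 in liver and 183 in muscle. Counts assigned to genes totalled 383896 to 439872 per library, and levels are given as CPM, counts scaled to that total. Counts of a full-length library are not divided by transcript length, because 1 read stands for 1 transcript. Long transcripts may still be read less often, so levels of different genes describe the libraries as sequenced.

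A member was called higher in a tissue where it had at least 10 counts there and its fold in CPM had an exact 95% interval beginning above 2 in every pairing of libraries named. It was called lower where the same held in reverse. Of 50 members with enough counts in muscle, 3 were higher there than in all others, against 6.71% of all genes tested, and in liver 1 of 43 was, against 10.8%. In the reverse direction 1 of 41 members was lower in liver than in each other library, against 11.8% of all genes, and 1 of 37 was lower in muscle, against 2.20%. Both WAT libraries together had 0 of 45 members higher than in liver and muscle, against 4.22% of all genes, and 0 of 38 lower, against 0.612%. Between oWAT and sWAT, 0 of 48 were higher in oWAT, against 1.43%, and 0 of 48 lower, against 0.767%. The share of members called was below that of all genes in both directions in liver, on 1 call in each direction. In all 8 comparisons the counts of 0 to 3 members are too small to set them apart from the share over all genes. The 6 calls fell on 6 different genes.

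All 3 members higher in muscle were of the RBM family, and the leading one was RBM24, which promotes inclusion of exons in sarcomere transcripts. RBM24 had 142 counts (323 CPM) in muscle, against 0 in liver, 1 in oWAT and 2 in sWAT. With the floor of 3 counts in place of 0 in liver, the ratio of muscle to liver was 47.1. The exact lower bound of that pairing was 37.8. The ratio was 128 over oWAT (22.6 to 5095) and 62.0 over sWAT (16.8 to 517). RBM24 took 17.4% of all RBM counts in muscle (exact 95% binomial interval 14.9 to 20.2), against at most 0.294% in any other library.

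RBM38, the close relative of RBM24, was also highest in muscle, at a lower level. It had 24 counts (54.6 CPM) in muscle, against 1 in liver and 0 in oWAT and sWAT. Its ratio was 23.9 over liver (3.89 to 982), and its level was higher by at least 7.22-fold relative to oWAT and 6.98-fold relative to sWAT. Of the summed RBM24 and RBM38 counts in muscle, 85.5% were RBM24 (79.3 to 90.5).

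RBM20, best known for repressing exons of titin in striated muscle, was the third. It had 29 counts (65.9 CPM) in muscle, against 4 in liver, 2 in oWAT and 2 in sWAT. Muscle was thus above every other library, by 7.21-fold over liver (2.53 to 28.2), 13.1-fold over oWAT (3.31 to 113) and 12.7-fold over sWAT (3.20 to 109). The call over liver did not hold when the totals were adjusted by edgeR's TMM factors (5.31-fold, lower bound 1.86) or by DESeq2 size factors (5.32-fold, lower bound 1.87), both of which scale libraries by their middle-ranked gene ratios rather than by totals. RBM20 also ceased to be called with a 99% interval. RBM24 and RBM38 were called under both scalings. The 7 myofibre markers summed to 67008 CPM in muscle, against 126 in liver, 118 in oWAT and 122 in sWAT, and their part in these counts was not tested. MYH7 was at 0 in all 3 of the others, while TTN had 54 counts in liver, 25 in oWAT and 28 in sWAT.

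**Figure D1:**
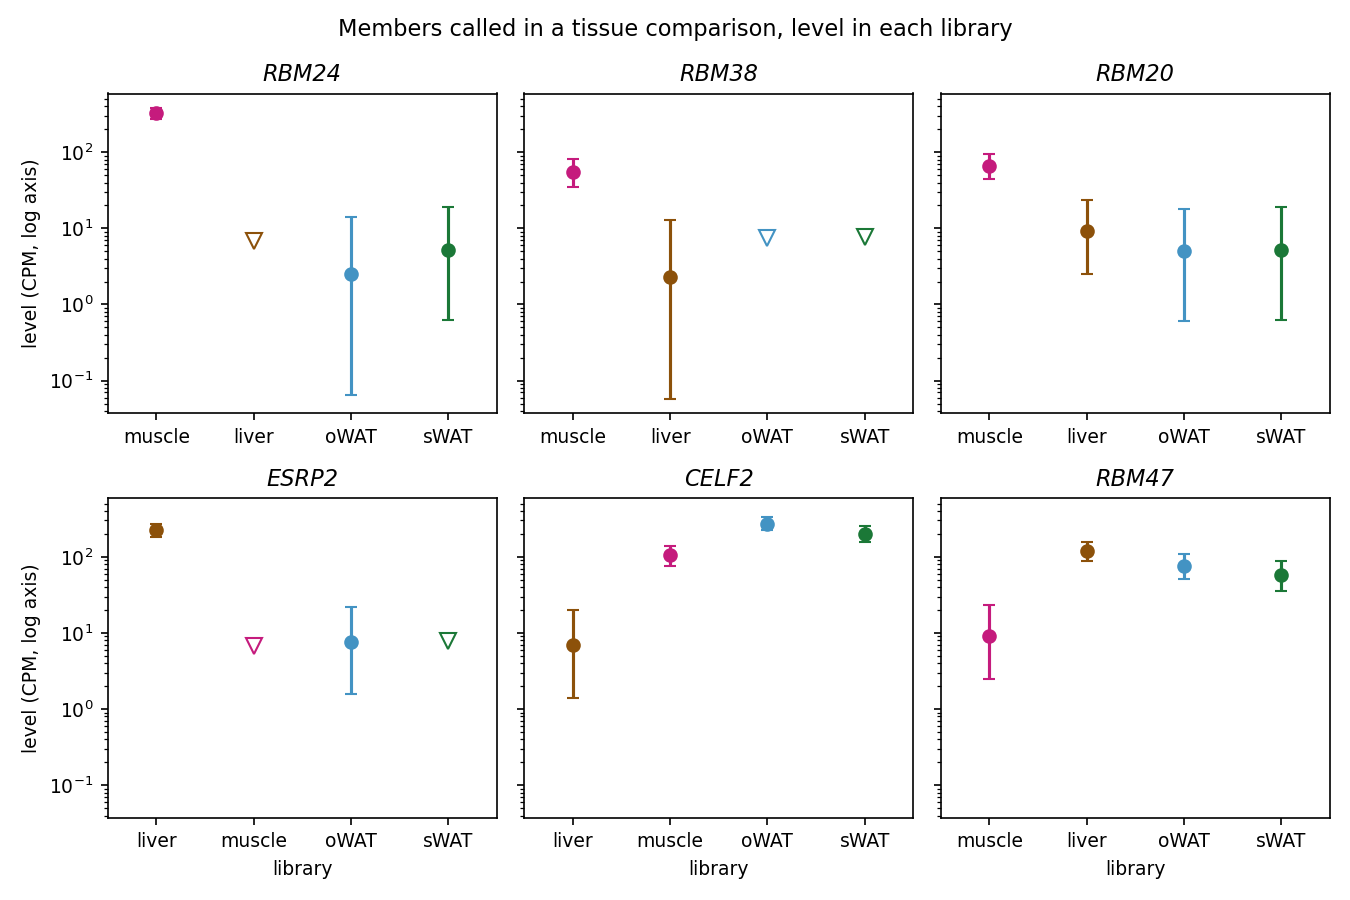
Level (CPM, log axis) in each library of the 6 members called in a comparison, with the tissue that stood apart at the left of each panel. Points are single pooled libraries, bars are exact 95% Poisson intervals of the count, and open triangles mark 0 counts, drawn at the floor of 3 counts. RBM24, RBM38 and RBM20 are high in muscle, ESRP2 is high in liver, CELF2 is low in liver and RBM47 is low in muscle.

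With the bound of 1 in place of 2, which asks only for a difference beyond counting error, 2 members were higher in liver, against 16.9% of all genes, and 11 lower, against 32.8%. Those lower were CELF2, HNRNPK, HNRNPM, HNRNPR, HNRNPU, HNRNPUL1, RBFOX2, RBM5, RBM22, SRSF2 and SRSF10. This list depends on scaling to library totals, and the bound of 1 was not applied with TMM factors. With TMM the liver ratios of HNRNPK were 0.951 to muscle, 0.994 to oWAT and 1.06 to sWAT. Those of HNRNPU were 0.847, 0.892 and 1.28 in the same order, while those of CELF2 stayed low, at 0.0891, 0.0506 and 0.0619. In muscle 5 were higher, against 13.9%, RBFOX1 and RBM18 joining the 3 above, and RBM47 alone was lower, against 10.9%. Both WAT libraries had 0 members lower than liver and muscle at this bound, against 1.94%. Between oWAT and sWAT, 9 were higher in oWAT, against 16.1%, and MBNL1, MBNL2 and NOVA1 were lower, against 8.99%.

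Single pairings, examined after the values were seen, added members that no 3-way comparison called at the bound of 2. Lower in liver than in muscle were 7 of 50 members, against 23.0% of all genes, namely CELF2, NOVA1, RBFOX1, RBFOX2, RBM20, RBM24 and RBM38. With TMM 3 of these were called, CELF2, RBM24 and RBM38, against 16.1%. Lower in liver than in oWAT were CELF2, HNRNPUL1, RBFOX2 and RBM28, 4 of 48 against 25.8%, and with TMM CELF2 alone, against 9.95%. Lower in liver than in sWAT were CELF2, MBNL1, MBNL2, NOVA1, RBM28 and RBM43, 6 of 48 against 24.2%, and with TMM CELF2 and NOVA1, against 11.8%.

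Higher in liver than in muscle were ESRP2 and RBM47, 2 of 43 against 17.7%, and with TMM also MBNL3, against 21.8%. Over oWAT, ESRP2 was the member called at library-total scaling, against 12.9%, and CELF1 and SRSF6 were added with TMM, against 20.5%. Over sWAT it was again ESRP2, against 13.6%, and MBNL3, RBM47 and SRSF6 were added with TMM, against 20.6%. CELF1, MBNL3 and SRSF6 thus passed the bound in a liver pairing with TMM, as with DESeq2 scaling, and not with library totals.

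In muscle, RBM20, RBM24 and RBM38 were higher than in oWAT, 3 of 50 against 8.30%, and the same 3 were called with TMM, against 12.3%. They were also higher than in sWAT, against 9.23%, and RBFOX1 was added with TMM, against 12.5%. RBM47 was lower in muscle than in oWAT, 1 of 48 against 11.4%, and MBNL2, RBM43 and RBM47 were lower in muscle than in sWAT, 3 of 48 against 11.2%. With TMM there were 0 of either, against 5.04% and 5.87%. Between oWAT and sWAT with TMM, 0 members were higher in oWAT, against 1.22%, and MBNL2 was lower, against 1.17%.

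RBFOX1, a regulator of muscle and neuronal exons, had 10 counts in muscle against 0 in liver, 1 in oWAT and 0 in sWAT. It was not called against all 3, because its ratio over oWAT (9.02-fold) had an interval of 1.28 to 391 and the exact lower bound over sWAT was 1.96. Its relative RBFOX2, which is made in many tissues, had 33 counts (75.0 CPM) in muscle, against 5 (11.4 CPM) in liver, 26 (65.5 CPM) in oWAT and 15 (39.1 CPM) in sWAT. RBFOX2 in muscle was 6.57-fold above liver (2.55 to 21.5), while the intervals of its ratios to oWAT and sWAT began at 0.664 and 1.01. With TMM the ratio to liver was 4.83, and RBFOX2 was no longer called lower in liver than in muscle. RBM18 was higher in muscle than in every other library, with lower bounds under 2. It had 40 counts in muscle against 11 in liver, 18 in oWAT and 19 in sWAT, and its lower bounds were 1.82, 1.12 and 1.04.

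ESRP2 was the only member higher in liver. It encodes an epithelial splicing regulatory protein and in mice drives the adult splicing programme of hepatocytes. ESRP2 had 98 counts (224 CPM) in liver, against 0 in muscle, 3 in oWAT and 0 in sWAT. With the floor of 3 counts in place of 0, its ratio was 32.8 over muscle (exact lower bound 26.2) and 28.7 over sWAT (22.9). Its ratio over oWAT was 29.6 (9.84 to 146). The other gene of this family, ESRP1, was not analysed here. ESRP2 overlaps another protein-coding gene in the RefSeq annotation of the assembly T2T-MFA8v1.1, and whether the counting used strand is not stated.

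The epithelial list moved with ESRP2 in part. Of its 7 genes, CDH1, KRT7 and KRT19 were in the files, with 105 summed counts (240 CPM) in liver, 53 (134 CPM) in oWAT and 0 in muscle and sWAT. The genes of the list went different ways, since CDH1 had 102 of the counts in liver and 2 in oWAT, and KRT19 had 2 in liver and 48 in oWAT. The 6 mesothelial markers summed to 1556 counts (3921 CPM) in oWAT, 8 in liver and 0 in muscle and sWAT. The part of epithelial and mesothelial cells in the ESRP2 counts was not tested.

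CELF2 was the member called lower in liver. CELF proteins bind UG-rich sequence, and CELF2 is known from heart, brain and T cells. It had 3 counts (6.86 CPM) in liver, against 46 (105 CPM) in muscle, 108 (272 CPM) in oWAT and 77 (201 CPM) in sWAT. The liver ratio was 0.0656 to muscle (0.0130 to 0.204), 0.0252 to oWAT (0.00511 to 0.0756) and 0.0342 to sWAT (0.00690 to 0.104). The other 3 libraries were not level either. CELF2 in muscle was 0.384 times its oWAT level (0.266 to 0.547) and 0.521 times its sWAT level (0.354 to 0.761), differences beyond counting error that did not pass the bound of 2.

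CELF1, the widely made member of the family, did not follow CELF2. It had 95 counts (217 CPM) in liver, against 82 (186 CPM) in muscle, 45 (113 CPM) in oWAT and 55 (143 CPM) in sWAT. CELF1 in liver was 1.91 times its oWAT level (1.33 to 2.79) and 1.52 times its sWAT level (1.08 to 2.15), and the interval of its ratio to muscle spanned 1. CELF2 therefore made up 3.06% of the CELF counts in liver (0.636 to 8.69), against 35.9% in muscle (27.7 to 44.9), 70.6% in oWAT (62.7 to 77.7) and 58.3% in sWAT (49.4 to 66.8). This share does not depend on how libraries are scaled. The liver interval lay below the other 3, and muscle lay below both WAT libraries, whose intervals overlapped.

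Cell type lists followed CELF2 only in part. CELF2 was highest in oWAT, but only 1.36-fold over sWAT, with an interval that began close to 1 (1.004 to 1.84). With TMM that ratio was 1.22. The endothelial, fibroblast, and smooth muscle and pericyte sums were highest in sWAT. Endothelial markers summed to 283 CPM in liver and 1041 in muscle, with 2150 in oWAT and 3801 in sWAT, fibroblast markers to 117, 8309, 11258 and 35194 CPM, and smooth muscle and pericyte markers to 93.7, 1089, 1187 and 1862 CPM in the same order, so that liver was lowest in each sum, although the endothelial gene KDR had fewer counts in muscle. Leukocyte markers were at 50.3 CPM in liver and 25 in muscle, with 171 in oWAT and 67.7 in sWAT, and macrophage markers at 628, 439, 1515 and 1133. For these 2 lists muscle, not liver, was lowest. All endothelial, fibroblast, smooth muscle and macrophage markers had counts in every library. The part of these cell types in the CELF2 counts was not tested.

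RBM47 was the member lower in muscle. It binds RNA and serves as a cofactor of the cytidine deaminase that edits apolipoprotein B mRNA. RBM47 had 4 counts (9.09 CPM) in muscle, against 52 (119 CPM) in liver, 30 (75.6 CPM) in oWAT and 22 (57.3 CPM) in sWAT. The muscle ratio was 0.0765 to liver (0.0201 to 0.208), 0.120 to oWAT (0.0308 to 0.341) and 0.159 to sWAT (0.0398 to 0.467). With TMM the sWAT level was 4.73-fold that of muscle with a lower bound of 1.61, and with DESeq2 scaling 4.90-fold with 1.66, so that this call ended. It also ended with a 99% interval and with libraries thinned to the smallest total. As a share of RBM counts, RBM47 was 0.491% in muscle (0.134 to 1.25), below the other 3 libraries, and 9.45% in liver (7.14 to 12.2), above them. The summed macrophage markers were also lowest in muscle, at 439 CPM, although CD68 and CSF1R were lower in liver, and their part in the RBM47 counts was not tested. The 3 epithelial markers analysed, of 7 on the list, summed to 105 counts in liver and 53 in oWAT. They were at 0 in muscle and in sWAT, where RBM47 had 4 and 22 counts. The part of epithelial cells in the RBM47 counts was not tested.

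The MBNL family differed between the WAT libraries, though not past the bound. MBNL proteins favour adult splice forms in muscle and other tissues. MBNL2 had 25 counts (63.0 CPM) in oWAT and 74 (193 CPM) in the sWAT library, with 26 (59.4 CPM) in liver and 20 (45.5 CPM) in muscle. The sWAT library stood apart from the other 3, which had similar levels. The ratio of oWAT to sWAT was 0.327 (0.199 to 0.521), and its upper bound missed the 0.5 required by little. MBNL2 was called lower in oWAT with TMM, with DESeq2 scaling, and with totals that left out the 10 most counted genes of any library. It was called at library-total scaling against liver (sWAT 3.24-fold higher, 2.05 to 5.29) and muscle (4.24-fold, 2.56 to 7.34), and with TMM against neither.

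MBNL1 had 18 counts (45.4 CPM) in oWAT and 38 (99 CPM) in the sWAT library, with 10 (22.9 CPM) in liver and 23 (52.3 CPM) in muscle, a ratio of oWAT to sWAT of 0.458 (0.246 to 0.823). MBNL3 had its most counts in liver, with 12 counts (27.4 CPM) in liver, against 1 in muscle, 5 in oWAT and 2 in sWAT. MBNL3 made up 25% of MBNL counts in liver (13.6 to 39.6), against 2.27% in muscle (0.0575 to 12), 10.4% in oWAT (3.47 to 22.7) and 1.75% in sWAT (0.213 to 6.19). The liver interval lay above muscle and sWAT and overlapped that of oWAT.

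NOVA1, known for neuronal exons, had 7 counts (17.6 CPM) in oWAT and 21 (54.7 CPM) in the sWAT library, with 0 in liver and 10 (22.7 CPM) in muscle. The ratio of oWAT to sWAT was 0.322 (0.116 to 0.787). Nerve and Schwann cell markers summed to 60.5 CPM in oWAT, 104 in sWAT, 13.7 in liver and 141 in muscle, and their part in the NOVA1 counts was not tested. STMN2, a neuronal gene of that list, had 24 counts (62.5 CPM) in sWAT, where NOVA1 was highest, and 0 in the other libraries, and NCAM1 made up 123 CPM of the sum in muscle. In the other direction, SRSF7 had 86 counts (217 CPM) in oWAT and 30 (78.1 CPM) in the sWAT library, with 32 (73.1 CPM) in liver and 36 (81.8 CPM) in muscle. SRSF7 was thus highest in oWAT, by 2.77-fold over sWAT (1.81 to 4.35), and did not pass the bound. Mesothelial markers had 1556 counts in oWAT and 0 in sWAT, and their part in the SRSF7 counts was not tested. SRSF7 and MBNL2 each overlap another protein-coding gene in the RefSeq annotation, OXGR1 in the case of MBNL2.

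**Figure D2:**
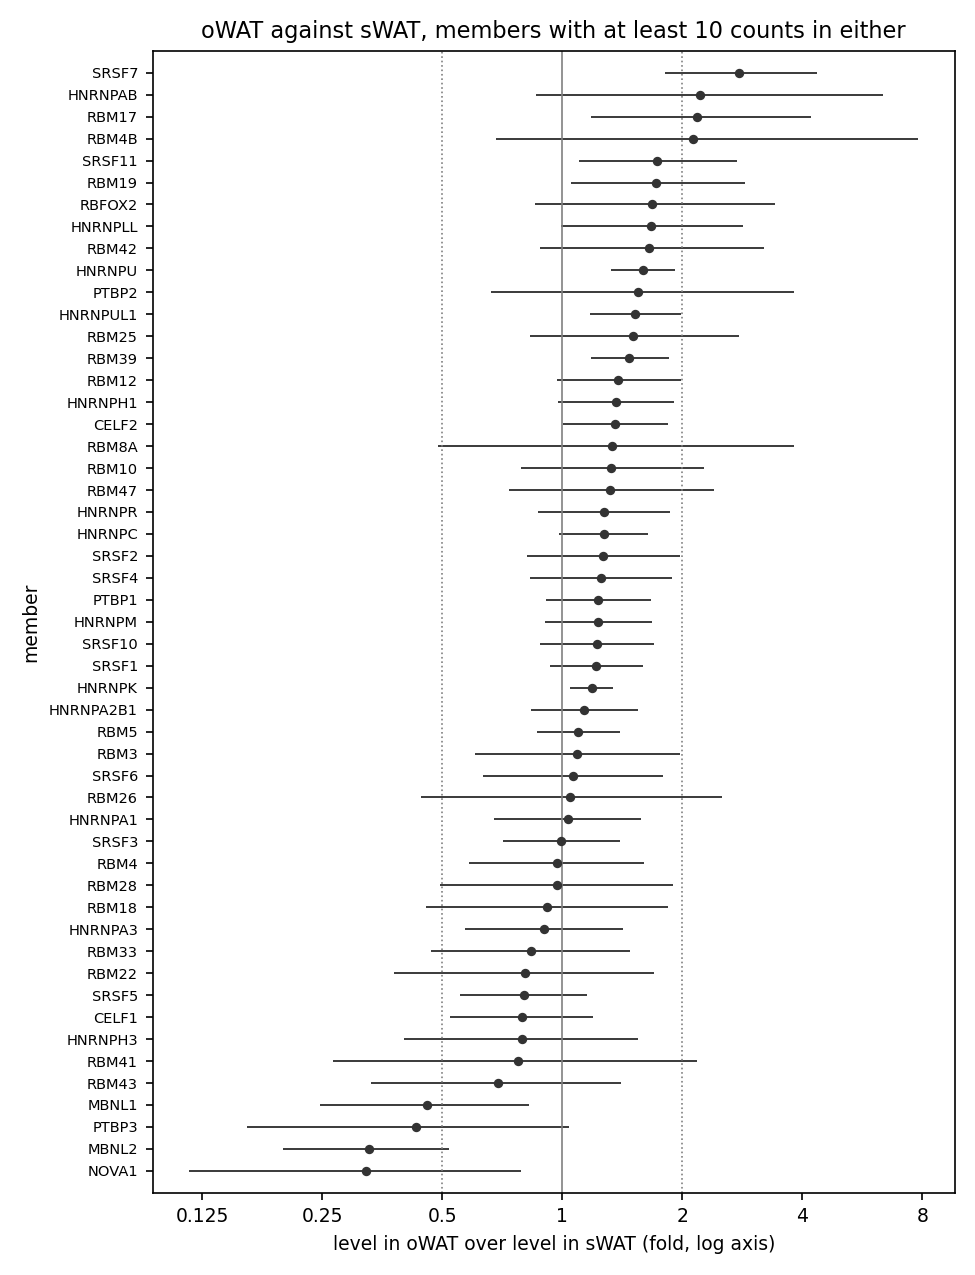
Fold of the level in oWAT over that in sWAT (log axis) for the 51 members with at least 10 counts in either library. Points are ratios of CPM, bars exact 95% intervals, and dotted lines mark 0.5 and 2. SRSF7 at 2.77 and NOVA1 at 0.322 are the ends of the range, and no interval lies wholly outside the dotted lines.

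At the bound of 1, 7 of 45 members were higher in WAT, against 21.1% of all genes. They were CELF2, HNRNPC, HNRNPK, RBM3, RBM28, RBM43 and SRSF4. RBM3, a protein induced by cold, had 27 counts (68.0 CPM) in oWAT and 24 (62.5 CPM) in the sWAT library, against 7 each in liver and muscle. Its smallest ratio was 3.91, of sWAT over liver (1.63 to 10.7). The nucleolar RBM28 had 20 counts each in oWAT and sWAT, against 3 in liver and 7 in muscle. RBM43 had 15 counts in oWAT and 21 in the sWAT library, against 4 in liver and 3 in muscle. HNRNPC and HNRNPK, the most counted of the 7, were higher in WAT by 1.19-fold to 2.33-fold over the 4 pairings each, and with TMM some of these ratios turned to below 1.

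**Figure D3:**
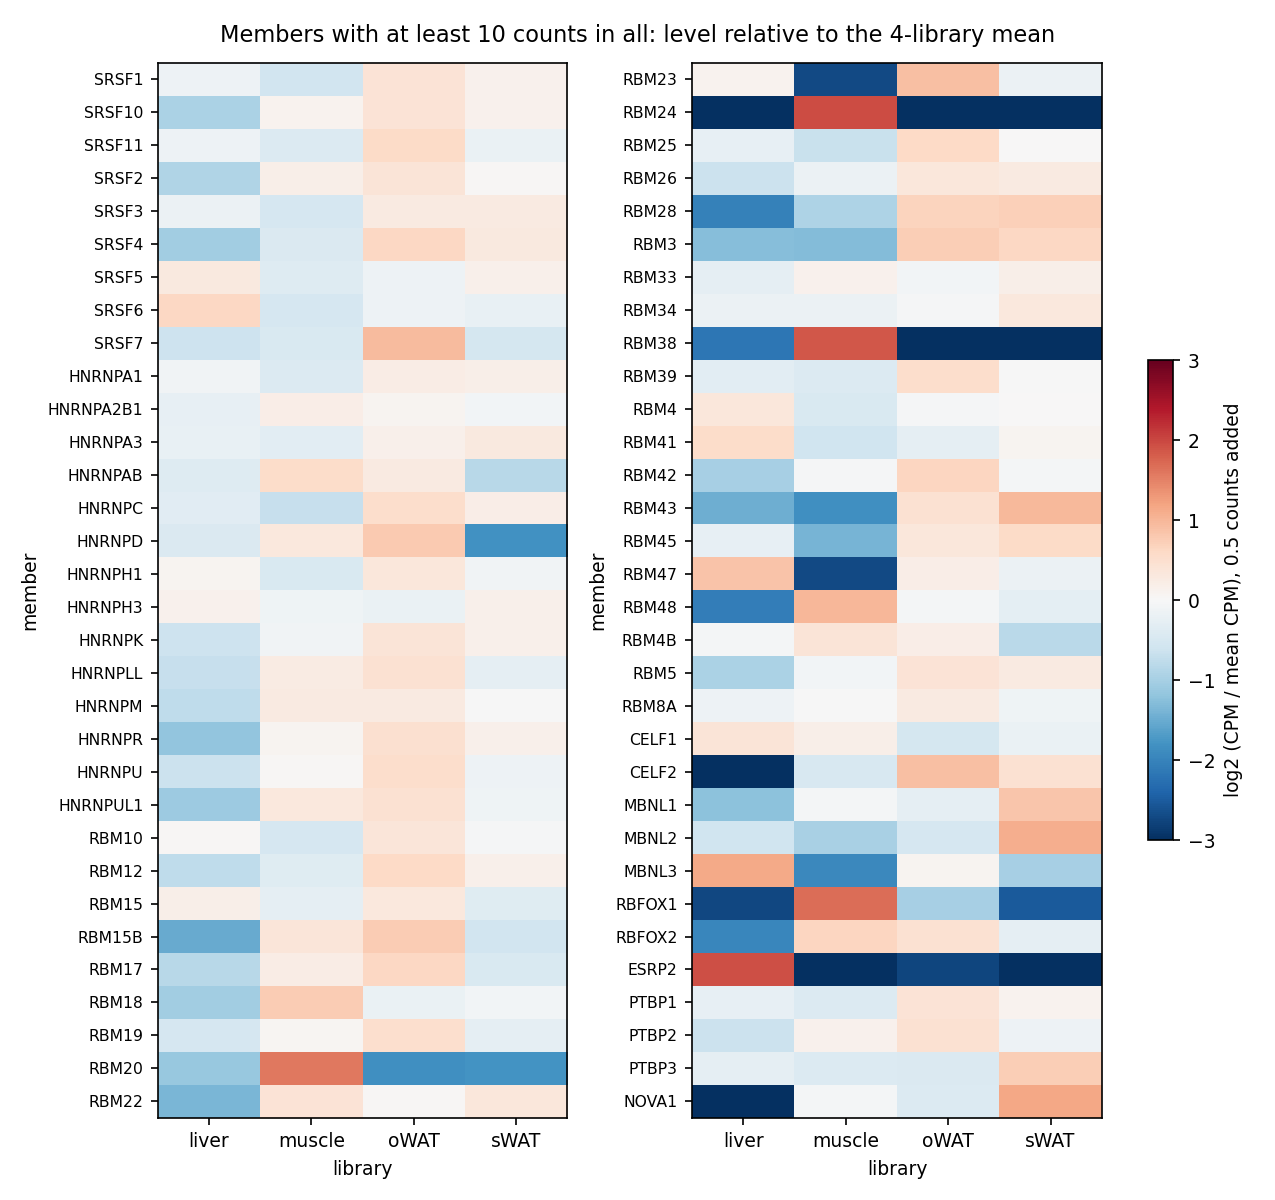
Level of the 64 members with at least 10 counts over the 4 libraries, as log2 of CPM over the mean CPM of the 4 libraries after adding 0.5 counts, by family. Columns are single pooled libraries and colours are limited to 3 in either direction. SRSF, HNRNP and PTBP members are mostly pale. RBM24, RBM38, RBM20, RBM47, ESRP2, CELF2, NOVA1 and RBFOX1 are among those with strong colours. So are RBFOX2, RBM28, RBM43, RBM48 and MBNL3, as well as RBM23, with 10 counts in all, and HNRNPD, with 21.

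Most counts of the families came from broadly present members. HNRNPK, which binds C-rich RNA, had the most, with 314 counts (718 CPM) in liver, 451 (1025 CPM) in muscle, 575 (1449 CPM) in oWAT and 469 (1222 CPM) in sWAT. It supplied 31.8% to 36.6% of the HNRNP counts of each library. HNRNPU, a nuclear scaffold protein, had 150 counts (343 CPM) in liver, 242 (550 CPM) in muscle, 306 (771 CPM) in oWAT and 186 (485 CPM) in sWAT. RBM39, a partner of the splicing factor U2AF, had 123 counts (281 CPM), 116 (264 CPM), 201 (507 CPM) and 132 (344 CPM) in the same order.

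RBM5, a regulator of exons in apoptosis genes, had 66 counts (151 CPM) in liver, 121 (275 CPM) in muscle, 153 (386 CPM) in oWAT and 135 (352 CPM) in sWAT. HNRNPUL1, a relative of HNRNPU, had 58 (133 CPM), 154 (350 CPM), 154 (388 CPM) and 98 (255 CPM) in the same order, and in liver was 0.342 times its oWAT level (0.248 to 0.465), a call that ended with TMM. HNRNPC, which binds uridine tracts, had 86 (197 CPM) in liver, 68 (155 CPM) in muscle, 143 (360 CPM) in oWAT and 109 (284 CPM) in sWAT. Under library-total scaling oWAT had the highest level of all 3, but its interval ran into that of sWAT for RBM5 and HNRNPC and into that of muscle for HNRNPUL1. With TMM the highest was muscle for RBM5 and HNRNPUL1 and liver for HNRNPC.

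SRSF1, the founding SR protein, had 96 counts (219 CPM) in liver, 71 (161 CPM) in muscle, 128 (323 CPM) in oWAT and 102 (266 CPM) in sWAT. HNRNPA2B1 had 83 (190 CPM), 114 (259 CPM), 95 (239 CPM) and 81 (211 CPM) in that order. HNRNPM had 53 (121 CPM), 110 (250 CPM), 99 (249 CPM) and 78 (203 CPM). PTBP1, the polypyrimidine tract binding protein of non-neuronal cells, had 72 (165 CPM), 64 (145 CPM), 103 (260 CPM) and 81 (211 CPM). HNRNPA2B1 was the most even of the 10 under library-total scaling, and its highest library was 1.37 times its lowest.

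The other SR proteins were spread over all tissues. SRSF3, which favours inclusion and export of mRNA, had 61 counts in liver and 49 in muscle, with 75 in oWAT and 73 in sWAT, and SRSF5 had 86, 54, 57 and 69 in the same order, with its highest CPM in liver. SRSF11 had 32 to 57 counts per library. Totals over the 4 libraries ran from 2 to 397 counts among the 12 SRSF members, from 21 to 1809 among the 14 HNRNP members and from 1 to 572 among the 31 RBM members. Of the hnRNP genes not named so far, HNRNPLL, a regulator of CD45 exons in lymphocytes, had 130 counts in all, HNRNPH3 had 86 and HNRNPAB had 56.

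Several RBM members with lower counts were also without a call. RBM12 had 215 counts in all, RBM10, a relative of RBM5, had 118, RBM33 had 110, RBM17, a spliceosome component, had 96, RBM25 had 84 and RBM42 had 76. RBM26 had 42, RBM41 had 41, RBM45 and RBM48 had 22 each and RBM34 had 17. RBM48, a protein of the minor spliceosome, had 12 counts in muscle, against 1 in liver, 5 in oWAT and 4 in sWAT. Under library-total scaling the highest library was oWAT for 33 of the 69 members, sWAT for 14, muscle for 13 and liver for 9. This order follows that of the summed levels and shares their dependence on scaling. It includes the 5 members with under 10 counts in all. The same tally was not made over all genes, so it does not set the members apart from them.

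Among the 17 members with at least 200 counts in all, 8 had a highest library less than 2 times the lowest in CPM, or 47.1%, against 13.4% of the 1643 genes of the series with as many counts. The median of that ratio was 2.02 for these members and 4.41 for the genes. Only library totals were used for it, and the minimum left out RBM24, with 145 counts in all, and ESRP2, with 101. All 6 pairings had intervals inside 0.5 and 2 for HNRNPA2B1 alone, 5.88% of the 17 members, against 3.16% of the genes, a share too near to tell them apart with 1 gene. Ranks of the 64 members with at least 10 counts were alike across libraries, with Spearman correlations of 0.94 between oWAT and sWAT and 0.61 between liver and muscle, against 0.89 and 0.39 over 10127 genes. These are correlations across genes within pairs of single libraries, given as descriptions. The members and the genes were not matched for counts, on which such correlations depend. The values therefore do not show that members are more alike across tissues than other genes.

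The summed level of all members was lowest in liver when libraries were scaled to their totals. It was 5338 CPM in liver (5125 to 5559) and 6752 in muscle (6512 to 6998), with 9035 in oWAT (8743 to 9334) and 7411 in sWAT (7142 to 7687). The order of liver and muscle against the WAT libraries turned round with TMM, which gave 7957 in liver and 7408 in muscle, with 6708 in oWAT and 6104 in sWAT, and likewise with DESeq2 scaling, which gave 7862, 7329, 6703 and 6249. No direction between tissues is therefore given for the families as a whole. TMM moved every gene by 1.01 on the log2 scale between liver and oWAT, 0.86 between liver and sWAT, 0.44 between liver and muscle, and by -0.15 between oWAT and sWAT.

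**Figure D4:**
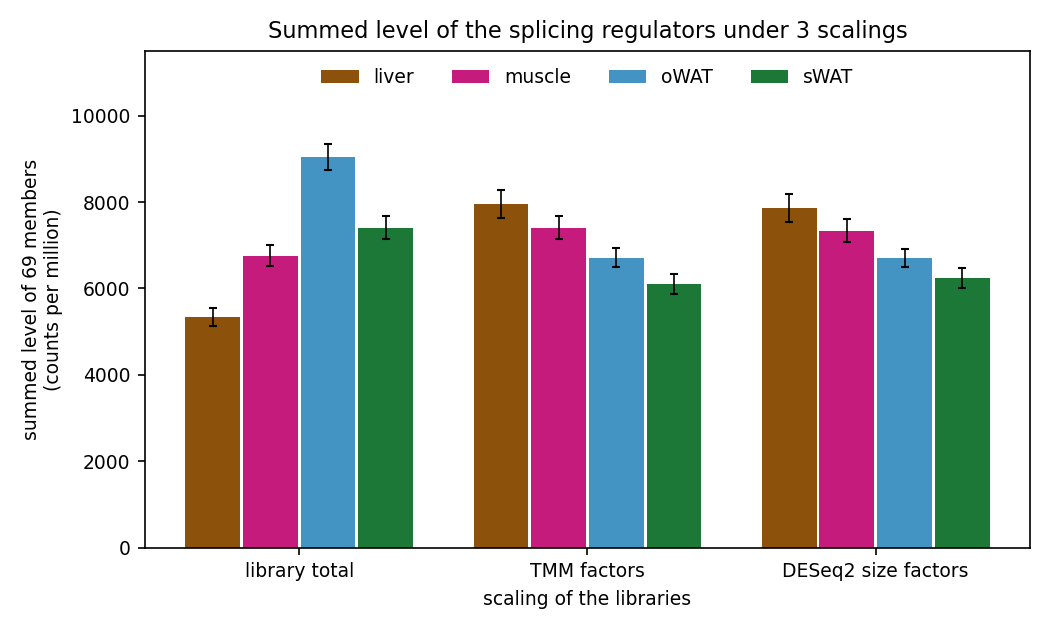
Summed level of the 69 members (CPM) in the liver, muscle, oWAT and sWAT libraries, under scaling to the library total, TMM factors and DESeq2 size factors. Bars are single pooled libraries and error bars exact 95% binomial intervals of the summed count. Liver is the lowest library at 5338 under the library total and the highest at 7957 under TMM.

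The median member stood near the median gene. The median log2 ratio of liver to the mean of the other 3 libraries was -0.69 over 64 members (order-statistic interval -0.95 to -0.32), against -0.89 over 10127 genes, and with TMM it was 0.10 against -0.12. The members' median thus lay above that of the genes under both scalings. For muscle the median was -0.19 (-0.52 to 0.083), against -0.40 over the genes. For both WAT libraries over liver and muscle it was 0.41 (0.29 to 0.60), against 0.51, and became -0.27 against -0.19 with TMM. For oWAT over sWAT it was 0.30 over 54 members (0.084 to 0.40), against 0.16 over 8255 genes. By family, the SRSF median in liver was -0.23 over 9 genes, that of HNRNP -0.53 over 14 and that of RBM -0.81 over 29, and with TMM they were 0.57, 0.20 and -0.030.

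Shares within a family do not depend on library scaling, and were examined after the values were seen. Of the 65 members of the CELF, HNRNP, MBNL, PTBP, RBM and SRSF families, 6 shares in liver and 5 in muscle had an interval apart from those of the other 3 libraries, and no share in oWAT or sWAT did. Those of CELF1, CELF2, RBM20, RBM24, RBM38 and RBM47 follow from the levels above. The other 4 were of SR and hnRNP proteins. The liver shares of CELF1 and CELF2 are the same result seen from both sides, since the family had no other member here. RBM47 was counted in liver and again in muscle. Shares of this kind were not computed for other gene families.

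SRSF6, a regulator of exon inclusion, made up 13.9% of SRSF counts in liver (10.9 to 17.5), against 6.68% in muscle (4.52 to 9.46), 5.35% in oWAT (3.73 to 7.39) and 6.29% in sWAT (4.31 to 8.81). It had 64 counts (146 CPM) in liver, against 29 (65.9 CPM) in muscle, 34 (85.7 CPM) in oWAT and 31 (80.8 CPM) in sWAT. SRSF6 was thus the highest in liver under library-total scaling as well, by 1.71-fold over oWAT (1.11 to 2.67), and by 3.43-fold with TMM.

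SRSF10, which becomes a repressor of splicing when dephosphorylated, went the other way, with 8.06% of SRSF counts in liver (5.74 to 10.9), against 18.0% in muscle (14.5 to 21.9), 13.7% in oWAT (11.1 to 16.6) and 14.0% in sWAT (11.1 to 17.4). It had 37 counts (84.6 CPM) in liver, against 78 (177 CPM) in muscle, 87 (219 CPM) in oWAT and 69 (180 CPM) in sWAT. HNRNPH1, a binder of G-runs, was 8.40% of HNRNP counts in liver (6.75 to 10.3), against 4.04% to 5.28% in the others. HNRNPC was 4.82% in muscle (3.76 to 6.07), against 8.39% to 8.70% in the others.

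**Figure D5:**
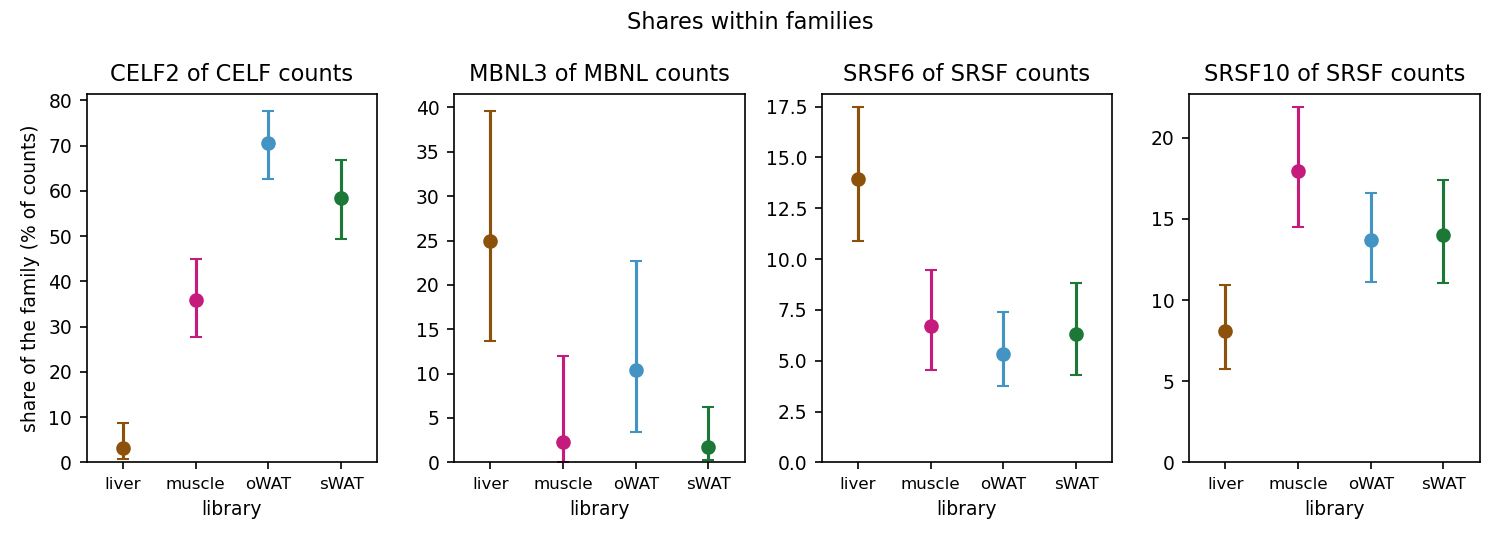
Share of a family's counts (percent) taken by CELF2, MBNL3, SRSF6 and SRSF10 in the liver, muscle, oWAT and sWAT libraries. Points are single pooled libraries and bars exact 95% binomial intervals. In liver CELF2 (3.06%) and SRSF10 (8.06%) are low, and MBNL3 (25%) and SRSF6 (13.9%) are high.

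The PTBP family kept a similar make-up. PTBP1 supplied 80.0% of PTBP counts in liver (70.2 to 87.7), 73.6% in muscle (63.0 to 82.4), 81.1% in oWAT (73.2 to 87.5) and 74.3% in sWAT (65.1 to 82.2), with overlapping intervals. PTBP2, its neuronal relative, had 8 to 16 counts per library and PTBP3 had 8 to 18. Within the RBM pair RBM4 and RBM4B, RBM4 supplied 83.1%, 66.7%, 75.6% and 87.2% in liver, muscle, oWAT and sWAT. RBM4 and RBM4B are close copies, and how reads that match both were assigned is not stated, so their split is uncertain. The same holds for HNRNPA1 and HNRNPA3, which have processed copies elsewhere in primate genomes.

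Genes around the families were examined by list. Of 50 other splicing regulators on a list, 40 were in the files, and 1 of 28 with enough counts was higher in liver, against 10.8% of all genes, and 1 of 32 in muscle, against 6.71%. The liver gene was A1CF, which like RBM47 acts in editing of apolipoprotein B mRNA. A1CF had 104 counts (238 CPM) in liver, against 0 in each other library, so that it was higher in liver by at least 30.4-fold relative to sWAT. The muscle gene was YBX3, a cold-shock domain protein, with 305 counts (693 CPM) in muscle, against 7 in liver, 20 in oWAT and 10 in sWAT, 13.8-fold over oWAT (8.75 to 22.8).

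Among kinases that phosphorylate SR proteins, 8 of 9 were in the files and 1 of 7 with enough counts was higher in muscle, against 6.71% of all genes. This was SRPK3, a muscle form of the SR protein kinases, with 46 counts (105 CPM) in muscle against 0 in each other library. With the floor of 3 counts in place of 0, its ratio over sWAT was 13.4 (exact lower bound 10.5). CLK1, a nuclear SR protein kinase, had 101 counts (231 CPM) in liver, 112 (255 CPM) in muscle, 139 (350 CPM) in oWAT and 122 (318 CPM) in sWAT. Core spliceosome genes, 48 of 52 in the files, had 0 calls in the 8 comparisons, for which 0.612% to 11.8% of all genes were called. Their median log2 ratio in liver was -0.84, and -0.046 with TMM. Calls on A1CF, YBX3 and SRPK3 were kept with TMM, and these lists had no other call in the 8 comparisons with library totals or TMM. In single pairings other genes of the lists were called with library totals. KHDRBS1, a regulator of exon choice downstream of signalling, had 4 counts in liver and 29 in muscle, a ratio of 0.139 (0.0354 to 0.395). With TMM that ratio was 0.188. The core spliceosome gene SART1 had 3 and 28 counts, a ratio of 0.108 (0.0210 to 0.349), and 0.146 with TMM. Of all genes, 23.0% were called lower in liver than in muscle with library totals. SF3B2, SLU7 and PRPF8 of the core list were called in other pairings.

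The remaining members had too few counts for a statement on tissue. RBM11 had 1 count over the 4 libraries, RBM44 and SRSF12 had 2 each, SRSF8 had 3 and SRSF9 had 8. In all, 64 members had at least 10 counts and 58 had counts in every library. Of the 69 symbols, 65 matched a RefSeq symbol of T2T-MFA8v1.1, and 10 of these overlapped the span of another protein-coding gene there, HNRNPC (RPGRIP1), HNRNPK (RMI1) and HNRNPU (COX20) among them. A further 21 symbols of that annotation fit the naming rule and were not analysed here, HNRNPL, HNRNPF, RBM6 and NOVA2 among them.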

How the data were processed

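Each deposited file gives raw whole-number counts by gene symbol for 1 of 4 full-length libraries. Per the labels' protocols, RNA of 5 monkeys was pooled per tissue and sequenced on the PacBio Sequel II platform; the submitters' processing notes name minimap2 2.24. For read filtering, gene assignment, strand use, build and annotation the sources used here give nothing. Files list genes with at least 1 count; unlisted genes were taken as 0. An entry naming no gene (14.3% to 19.5% of each file) was left out of totals. Each library's total sets its precision; a floor of 3 counts equals 6.82 to 7.81 CPM.

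Folds are ratios of CPM with exact 95% Clopper-Pearson intervals; the rule was applied to all 13982 genes and tested on simulated data. Medians used 0.5 added counts. Members named with counts were those called in any of 8 comparisons and the 10 most counted; others were named after their values were seen. Members, lists and tests were chosen with earlier results of these data known. Alternatives were TMM (edgeR 4.0.16) and DESeq2 1.42.0 size factors, used for scaling alone, totals without each library's 10 most counted genes, minimum counts of 1 and 20, a 99% interval, a bound of 1, thinning and other pseudocounts. Single pairings and family shares were added after seeing the data. Python 3.11.15, NumPy 2.4.6, pandas 2.3.3, SciPy 1.17.1, matplotlib 3.10.9 and R 4.3.3 were used.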

Additional observations from a re-analysis of the deposited data

How the results depend on the processing

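No paired analysis was possible because each tissue had 1 library. Of the results on members, 63 values under an alternative stayed within 1.5 times the main count or within its interval, and 29 did not. With a bound of 1, 2 of 43 members were higher in liver (16.9% of all genes) and 5 of 50 in muscle (13.9%). In WAT 7 of 45 were higher (21.1%), and in liver 11 of 41 were lower (32.8%). Relative to sWAT, 9 of 48 were higher in oWAT (16.1%) and 3 of 48 lower (8.99%). The count lower in oWAT than in sWAT was 1 with TMM, DESeq2 scaling and totals without the 10 most counted genes (MBNL2), against 0. The count lower in muscle was 0 with TMM, DESeq2 scaling, a 99% interval and thinning, against 1 (RBM47). Summed levels in liver, muscle, oWAT and sWAT became 7957, 7408, 6708 and 6104 CPM with TMM, 7862, 7329, 6703 and 6249 with DESeq2 scaling, and 7091, 8502, 9897 and 8749 with totals without the 10 most counted genes. The median log2 ratio of members in liver was 0.096 under TMM and 0.074 under DESeq2 scaling, and that in WAT -0.27 and -0.24. The TMM and DESeq2 factors, estimated from the gene ratios of these libraries, lowered the effective total of liver and raised those of oWAT and sWAT. Which scaling fits these tissues was not tested. Depth limits members with under 10 counts in the higher library, for which no call could be made.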
